A study of Macaca mulatta with 24 samples.

Results

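Lysosomal hydrolases and lysosomal membrane proteins were followed at the mRNA level in the visceral (omental) white adipose tissue (WAT) of female rhesus macaques. The set was defined by gene name and function, and it was chosen with earlier results of these data known. It holds 38 genes, of which 34 were matched to a row of the gene counts table and all 34 were abundant enough to be tested. CTSK, MAN2B1, IDUA and NAGLU were not analysed here. For 33 of the 34 the gene name table gave the Ensembl identifier. The identifier of LIPA came from the study's own supplementary list of changed genes, so finding its row was tied to its outcome. The 34 genes were grouped by role into 11 proteases, 8 glycosidases, 5 sulfatases, 6 genes of lipid handling and 4 membrane or regulatory genes.

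Lysosomes are acidic compartments in which proteins, glycans, sulfated sugars and lipids delivered by endocytosis and autophagy are cut into reusable units. Newly made hydrolases are mostly carried there by mannose 6-phosphate receptors, and the transcription factor TFEB and its relatives raise the expression of many lysosomal genes together. In adipose tissue, lysosomes are prominent in macrophages, which take up lipid released from adipocytes and hydrolyse it with lysosomal acid lipase.

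The RNA-seq data came from 24 animals, 6 in each of 4 groups. All were females, labelled as 4 years old, that carried implants for 3 years. The study's methods give a higher age at biopsy than this label, and state that these animals were picked from larger groups because they reflected the group's fat mass and insulin levels. The C group received cholesterol implants and monkey chow. The T group received testosterone implants, to mimic hyperandrogenemia, and chow. The WSD group received cholesterol implants and a high-fat Western-style diet, and the T+WSD group received testosterone implants and that diet. The question was what each treatment, and their combination, did to gene expression in this depot. The tissue holds adipocytes together with immune, vascular, stromal and mesothelial cells. In such bulk samples fewer cells of a type and less RNA per cell cannot be told apart. The adipocyte gene ADIPOQ had a mean of 893 CPM (counts relative to the scaled library size) in C and 1267 in T+WSD, and PLIN1, which coats lipid droplets, 1382 and 2010.0. Neither difference passed the test given below. Without C replicate 1 the C means of ADIPOQ and PLIN1 were 968 and 1596 CPM. FABP4, another adipocyte marker, was counted at a mean of only 2.07 CPM in C and 2.59 in T+WSD.

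Total counts ran from 6899185 to 28270776 per library. In 8 libraries, 2 of each group, a single gene (ENSMMUG00000038258) took 9.92% to 54.7% of the counts, against 0.879% to 2.51% in the other 16. These 8 libraries are C replicates 1 and 2, T replicates 13 and 14, WSD replicates 19 and 20, and T+WSD replicates 7 and 8, and the counts of called genes in T+WSD versus C are given below for the lysosomal genes and the marker lists with and without them. C replicate 1 also stood apart in composition. Its mesothelial markers summed to 41683 CPM, against 3641 to 11125 in the other C animals, and its 21 macrophage markers to 302 CPM, against 618 to 1954. Its adipocyte markers were low as well, with a mean of 5.24 on the log2 CPM scale against 7.52 to 8.43. The 34 lysosomal genes together took 0.326% to 0.895% of the counts of a library, and no member had fewer than 30 counts in any animal. CPM values below use library sizes scaled by the TMM method (trimmed mean of M-values). An adjusted p is from edgeR's quasi-likelihood F-test, two-sided, with Benjamini-Hochberg adjustment over all 15207 genes tested, and a gene passed when it was below 0.05.

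Compared with C, 8 of the 34 lysosomal genes were higher in T+WSD and 0 were lower. Among all genes tested, 7.18% were higher and 9.94% lower, and the 8 genes made up 23.5% of the members. Since the members were chosen with earlier results of these data known, these shares are a description only. The genes that rose were the proteases LGMN, CTSD, CTSZ and CTSC, the lipid hydrolases LIPA and SMPD1, and the membrane proteins LAMP1 and MCOLN1. Without LIPA the count was 7 of 33. For 6 of the 8 (all but SMPD1 and MCOLN1) the fold change was also above 1.5, a limit passed upwards by 4.72% of all genes. The median log2 fold change was 0.18 over the 34 members and -0.04 over all genes tested, and 25 members had a positive value, where 45.1% of all genes did. By role, the medians were 0.43 for proteases, 0.28 for lipid handling, 0.23 for membrane and regulatory genes, 0.13 for sulfatases and -0.05 for glycosidases. None of the 8 glycosidases and none of the 5 sulfatases passed the test, by edgeR or by DESeq2. By edgeR 13 of all 34 members (38.2%) had an unadjusted p below 0.05, where 32.1% of all genes did. Among these were 0 of 8 glycosidases and 1 of 5 sulfatases. Of the 8 genes that rose, CTSD and LAMP1 had no overlap between the T+WSD and the C animals, which was the case upwards for 3.49% of all genes. In the same animals 5 of 11 markers of lipid-associated macrophages were higher and 12 of 15 mesothelial markers lower.

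**Figure D1:**
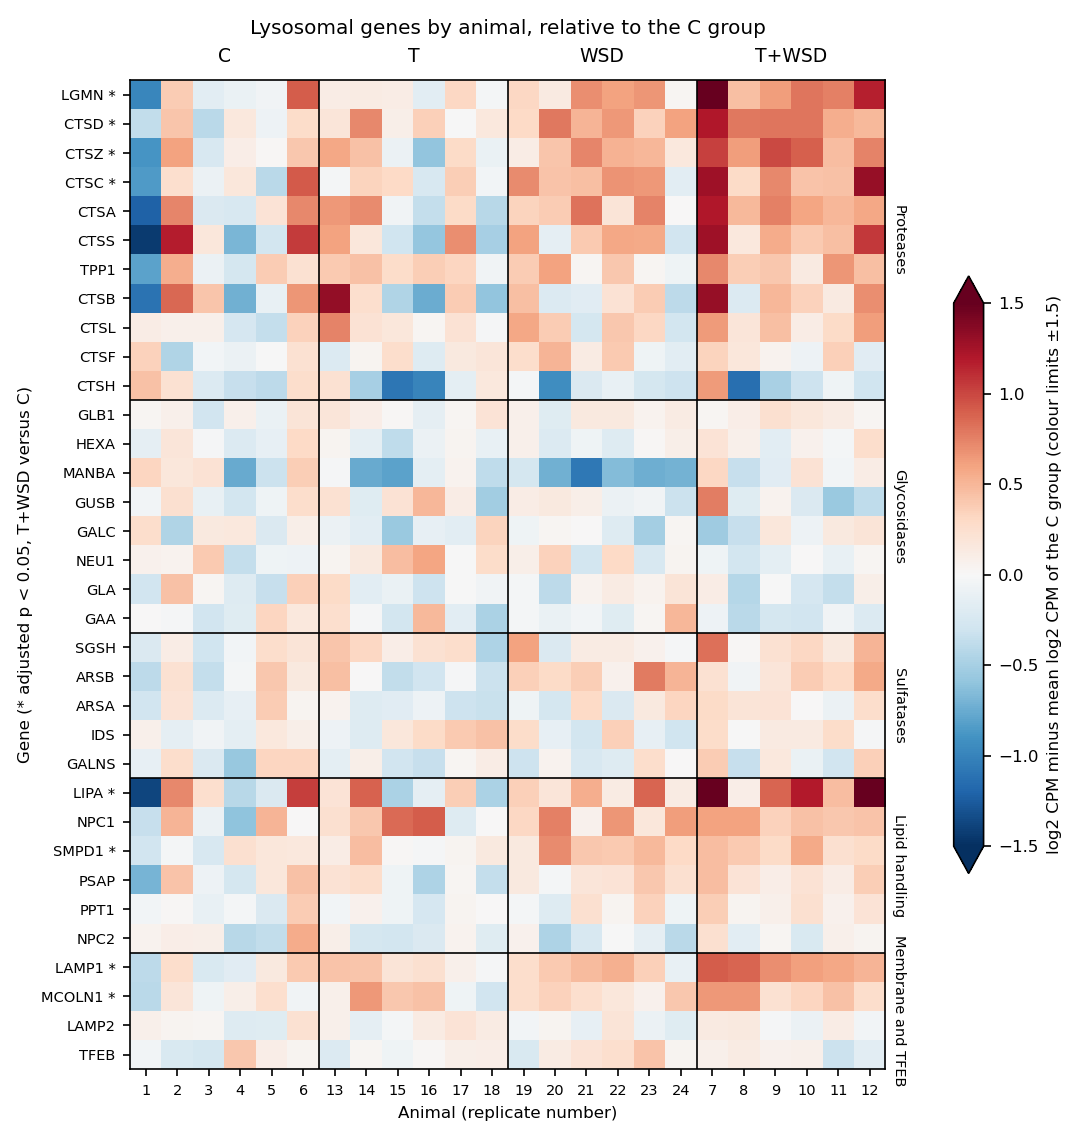
Heat map of the 34 lysosomal genes (rows, grouped by role) in the 24 animals (columns, by group and replicate number). Colour gives log2 CPM minus the mean log2 CPM of the 6 C animals, and a star marks the 8 genes that passed in T+WSD versus C. T+WSD replicates 7 and 12 were above every C animal in all 8 starred genes, and C replicate 1 was low in most proteases and in LIPA.

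Among the proteases, 4 of 11 rose in T+WSD. LGMN (ENSMMUG00000013966) encodes legumain, an asparaginyl endopeptidase that also matures other lysosomal proteases. It ranged from 127 to 474 CPM (median 239) in C, from 225 to 312 (271) in T, from 256 to 407 (348) in WSD and from 343 to 838 (432) in T+WSD. All 6 T+WSD animals lay above the C median, but only 2 lay above the highest C animal. The fitted level was 1.84 times that of C (log2 fold change 0.88, 95% interval 0.38 to 1.37, adjusted p = 0.0163). CTSD (ENSMMUG00000003874) encodes cathepsin D, the main aspartic protease of the lysosome. CTSD ranged from 384 to 679 CPM (median 526) in C, from 508 to 836 (572) in T, from 627 to 883 (749) in WSD and from 713 to 1174 (883) in T+WSD. Every T+WSD animal exceeded every C animal, and 4 of 6 WSD animals did as well. The T+WSD level was 1.69 times that of C (log2 fold change 0.76, 95% interval 0.43 to 1.08, adjusted p = 0.00475).

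CTSZ and CTSC had, like CTSD, the lowest mean in C and the highest in T+WSD. CTSZ (ENSMMUG00000015391) encodes cathepsin Z, a carboxypeptidase of macrophages and other immune cells. Its level ranged from 39.7 to 112 CPM (median 76.7) in C, from 48.8 to 109.8 (79.2) in T, from 79.1 to 122 (101) in WSD and from 102 to 149 (130.1) in T+WSD. In T+WSD 5 of 6 animals exceeded the highest C animal, and the fold change was 1.67 (log2 fold change 0.74, 95% interval 0.31 to 1.16, adjusted p = 0.0174). CTSC (ENSMMUG00000022139) encodes dipeptidyl peptidase I, which activates the granule serine proteases of immune cells. CTSC ranged from 44.6 to 151 CPM (median 83.2) in C, from 68.0 to 104 (88.8) in T, from 71.9 to 131 (118) in WSD and from 97.8 to 199 (121) in T+WSD. Replicates 7 and 12 were the highest of the T+WSD animals and the only ones above the C range. The fold change was 1.62 (log2 fold change 0.70, 95% interval 0.21 to 1.19, adjusted p = 0.0450).

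Of the 7 proteases that did not pass, CTSA had the largest change. It encodes cathepsin A, a carboxypeptidase that also protects beta-galactosidase and neuraminidase 1 from degradation. CTSA ranged from 51.7 to 199 CPM (median 121) in C, from 89.6 to 195 (131) in T, from 119.9 to 210.3 (154) in WSD and from 167 to 274 (179) in T+WSD. The groups overlapped (log2 fold change 0.57, 95% interval 0.028 to 1.11, adjusted p = 0.135). The cysteine proteases CTSS, CTSB and CTSL had log2 fold changes of 0.43, 0.38 and 0.38, with adjusted p-values of 0.414, 0.491 and 0.106. For CTSB the C animals alone spanned 362 to 1425 CPM, so that a difference of this size was within the spread of the group. TPP1, a tripeptidyl peptidase, had a value of 0.41 (adjusted p = 0.101), and CTSF and CTSH had values of 0.10 and -0.21 (adjusted p = 0.658 and 0.616).

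**Figure D2:**
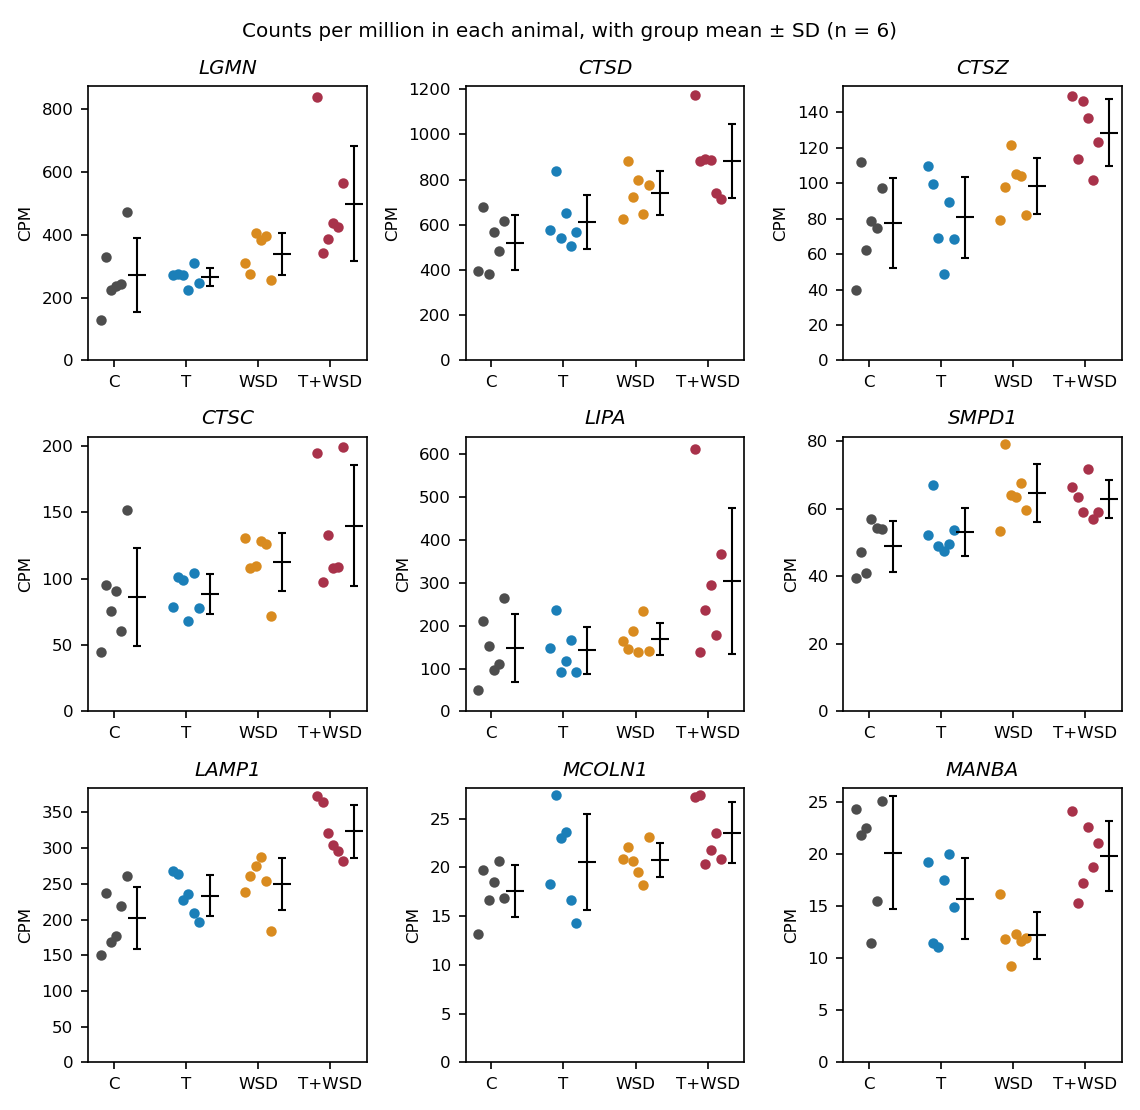
CPM of each animal (points, by group) for the 8 genes that passed in T+WSD versus C and for MANBA. The horizontal mark and bar give the group mean ± SD (n = 6). All T+WSD animals are above all C animals for CTSD and LAMP1, and the T+WSD points of LIPA run from 138 to 612 CPM. For MANBA 5 of 6 T+WSD points lie above all WSD points, and the WSD points overlap with those of C and T.

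Among the 6 genes of lipid handling, 2 rose in T+WSD. LIPA (ENSMMUG00000047356) encodes lysosomal acid lipase, which hydrolyses cholesteryl esters and triglycerides. LIPA ranged from 49.5 to 264 CPM (median 132) in C, from 92.4 to 237 (133) in T, from 139.7 to 235 (155) in WSD and from 138 to 612 (265) in T+WSD. In CPM the T+WSD animals were spread more widely than those of any other group, with 3 of 6 above the C range and 1 below every WSD animal. On the log2 scale, relative to the C mean, the T+WSD animals ran from 0.10 to 2.25. The C animals ran from -1.38 to 1.04, which was wider. The fold change of 2.06 (log2 fold change 1.04, 95% interval 0.31 to 1.78, adjusted p = 0.0465) was the largest of the members and also had the largest standard error, 0.36 on the log2 scale. SMPD1 (ENSMMUG00000007717) encodes acid sphingomyelinase, which cuts sphingomyelin to ceramide. SMPD1 ranged from 39.5 to 57.1 CPM (median 50.7) in C, from 47.6 to 66.9 (50.9) in T, from 53.5 to 79.3 (63.8) in WSD and from 57.0 to 71.9 (61.3) in T+WSD. In the WSD and the T+WSD group 5 of 6 animals exceeded the highest C animal, and the log2 difference of T+WSD from WSD was -0.041 (95% interval -0.26 to 0.18). The fold change was 1.28 in T+WSD (log2 fold change 0.36, 95% interval 0.14 to 0.58, adjusted p = 0.0246) and 1.32 in WSD, where it did not pass (adjusted p = 0.131).

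The cholesterol exporter NPC1 had the largest change in this role group that did not pass. Its level ranged from 61.3 to 132 CPM (median 90.4) in C, from 81.3 to 174 (116) in T, from 96.7 to 157 (129) in WSD and from 118 to 141 (125) in T+WSD. The means of T, WSD and T+WSD were all above that of C, and their log2 fold changes were 0.37, 0.40 and 0.42, with adjusted p-values of 0.596, 0.274 and 0.141. NPC2, which hands cholesterol to NPC1, had a value of -0.028 in T+WSD (adjusted p = 0.919). PSAP, the precursor of the saposins that present sphingolipids to their hydrolases, had the most counts of the members, 24.7% to 36.5% of their sum in each animal, a share that depends on transcript length. Its log2 fold change was 0.20 (adjusted p = 0.445), and that of PPT1, a thioesterase that removes palmitate from proteins, was 0.16 (adjusted p = 0.283).

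Of the membrane and regulatory genes, LAMP1 and MCOLN1 rose and LAMP2 and TFEB did not pass. LAMP1 (ENSMMUG00000009790) encodes an abundant glycoprotein that lines the lysosomal membrane. LAMP1 ranged from 151 to 261 CPM (median 198) in C, from 196 to 267 (231) in T, from 183 to 288 (258) in WSD and from 282 to 373 (313) in T+WSD. No T+WSD animal overlapped with the C or the T animals, and 5 of 6 exceeded every WSD animal. The T+WSD level was 1.6 times that of C (log2 fold change 0.68, 95% interval 0.40 to 0.95, adjusted p = 0.00367), the smallest adjusted p of the members. MCOLN1 (ENSMMUG00000011389) encodes TRPML1, a channel that releases calcium from the lysosome. MCOLN1 ranged from 13.2 to 20.7 CPM (median 17.7) in C, from 14.3 to 27.4 (20.7) in T, from 18.2 to 23.1 (20.7) in WSD and from 20.4 to 27.4 (22.6) in T+WSD. In T+WSD 5 of 6 animals exceeded the C range, and in T and in WSD 3 of 6 did. The fold change was 1.33 (log2 fold change 0.42, 95% interval 0.13 to 0.70, adjusted p = 0.0400). LAMP2, a second lining glycoprotein that also takes part in the fusion of autophagosomes, differed little between the groups. LAMP2 ranged from 64.7 to 86.3 CPM (median 75.8) in C, from 67.4 to 85.0 (79.0) in T, from 65.3 to 84.3 (70.6) in WSD and from 69.5 to 82.0 (76.3) in T+WSD. Its log2 fold change was 0.037 with an interval of -0.13 to 0.20. TFEB itself had a log2 fold change of -0.035 (95% interval -0.27 to 0.20, adjusted p = 0.872). Transcript levels do not report where the TFEB protein is in the cell, which is how its activity is mainly controlled.

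The glycosidases, which trim sugars from glycoproteins, glycolipids and glycogen, had log2 fold changes between -0.22 and 0.11 in T+WSD versus C, with a smallest adjusted p of 0.289. GAA, the acid glucosidase that degrades glycogen, was at the low end. GAA ranged from 71.0 to 109 CPM (median 86.3) in C, from 62.4 to 121 (81.8) in T, from 76.5 to 123 (84.7) in WSD and from 65.6 to 83.7 (73.7) in T+WSD. The T+WSD animals lay within the C range or below it (log2 fold change -0.22, 95% interval -0.52 to 0.071, adjusted p = 0.289). GLB1 (beta-galactosidase), HEXA (the alpha subunit of beta-hexosaminidase), GUSB (beta-glucuronidase), GALC (galactosylceramidase), GLA (alpha-galactosidase A) and NEU1 (a sialidase) had values of 0.11, 0.066, -0.033, -0.061, -0.15 and -0.10. The standard errors of these 6 genes ran from 0.079 to 0.18, and the highest upper limit of their 95% intervals was 0.35. All 5 sulfatases had positive log2 fold changes, from 0.026 to 0.36, and none passed. SGSH, which removes sulfate from heparan sulfate, had the largest. SGSH ranged from 6.78 to 10.01 CPM (median 8.58) in C, from 6.06 to 11.1 (9.91) in T, from 7.18 to 12.7 (8.91) in WSD and from 8.48 to 14.8 (10.1) in T+WSD. The groups overlapped (log2 fold change 0.36, 95% interval 0.027 to 0.69, adjusted p = 0.124). ARSB, IDS, ARSA and GALNS, which act on dermatan sulfate, heparan and dermatan sulfate, sulfatide and keratan sulfate, had values of 0.26, 0.13, 0.13 and 0.026, with adjusted p-values from 0.259 to 0.936.

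**Figure D3:**
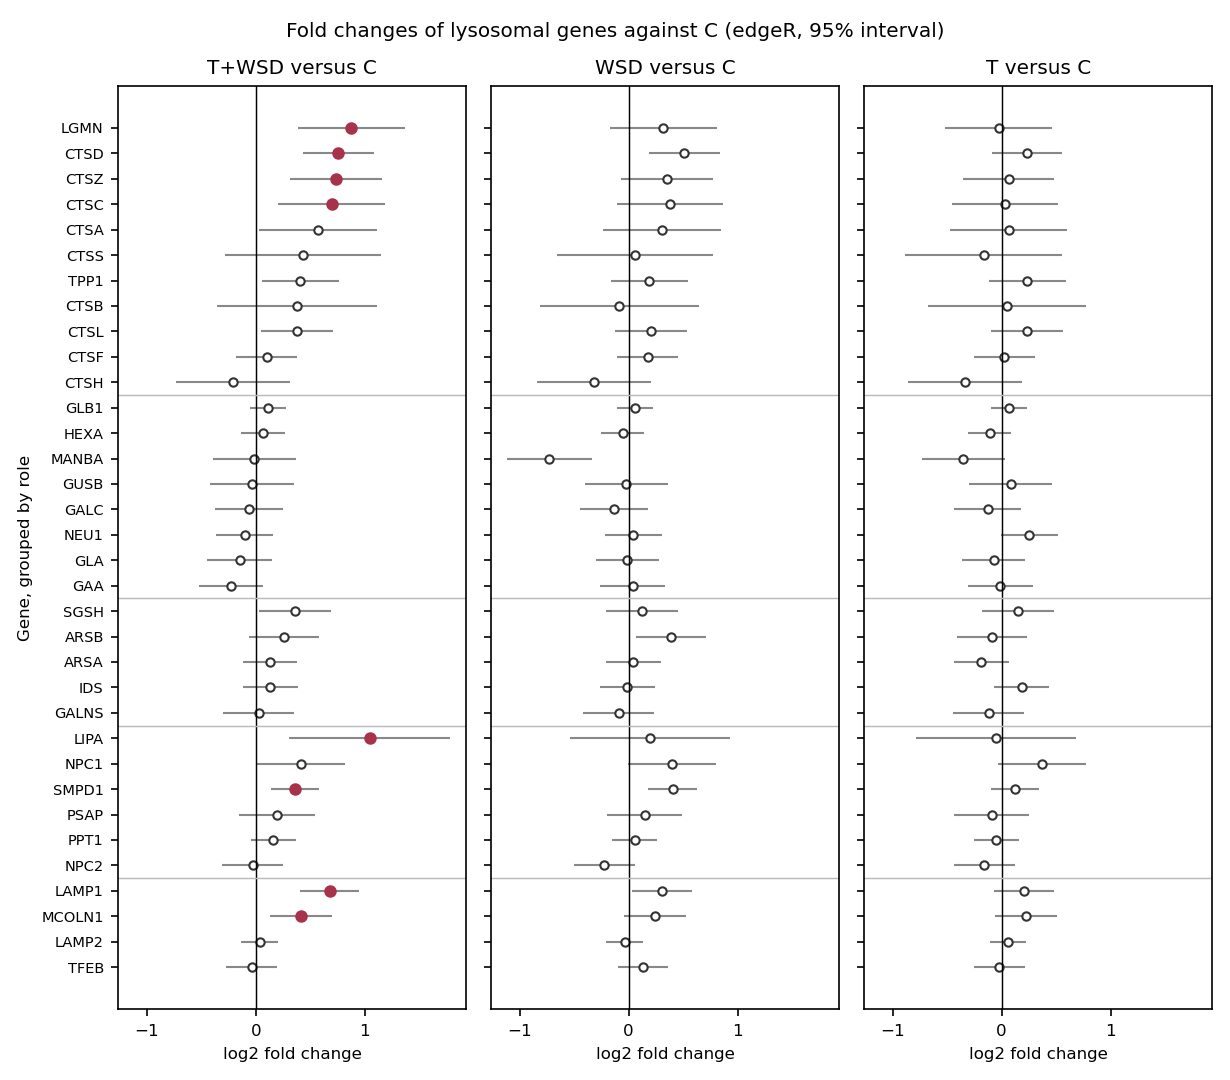
Log2 fold change (points) with 95% interval (lines) of each of the 34 genes in T+WSD, WSD and T versus C, grouped by role. Filled points passed at an adjusted p below 0.05. The 8 filled points are all in the T+WSD panel and above 0, and the glycosidases lie near 0 there, between -0.22 and 0.11.

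By edgeR neither treatment alone gave a call among the members. In WSD versus C 0 of 34 genes passed, and 0% of all genes did. Without adjustment 5 members had p below 0.05, of which 4 were higher (CTSD, SMPD1, LAMP1 and ARSB) and MANBA was lower, while 2807 of all genes (18.5%) did. CTSD and SMPD1 had log2 fold changes of 0.51 and 0.40 there, with adjusted p-values of 0.139 and 0.131. DESeq2 called 3 members in this comparison, CTSD and SMPD1 higher and MANBA lower, with adjusted p-values of 0.0468, 0.0299 and 0.0224. Over all genes DESeq2 called 389 of 15027 here. In T versus C 0 of 34 members passed by edgeR, again with 0% of all genes, and 0 members had an unadjusted p below 0.05, where 1312 genes (8.63%) did. DESeq2 called 0 members in T, and 11 of 15027 genes. The 8 genes that rose in T+WSD had log2 fold changes of -0.053 to 0.24 in T and 0.20 to 0.51 in WSD, against the same C animals.

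In T+WSD versus T, which adds the diet to testosterone, 4 members were higher and 0 lower, with 3.30% of all genes higher and 3.20% lower. They were LGMN, CTSZ, CTSD and LAMP1, with log2 fold changes of 0.91, 0.67, 0.52 and 0.47 and adjusted p-values of 0.0299, 0.0491, 0.0473 and 0.0371. LGMN and CTSZ also exceeded a fold change of 1.5, a limit passed upwards by 2.34% of all genes. For LGMN and LAMP1 all 6 T+WSD animals exceeded all T animals, a pattern held by 2.99% of all genes. LIPA and CTSC had values of 1.10 and 0.67 and did not pass by edgeR (adjusted p = 0.0633 and 0.0833). DESeq2 called 6 members, these 4 with LIPA and CTSC, and 1787 of 18335 genes. An edgeR fit of only the groups compared called 6 members, the 4 with CTSC and ARSA, and 2002 of 14565 genes. This comparison shares the T+WSD animals with that against C. Its count ranged from 0 to 6 when single animals were left out, and it was 0 without T replicate 16 or 18 or T+WSD replicate 7 or 10. In those 4 fits 506, 541, 565 and 357 of all genes were called, in that order, against 988 with all animals. Without C replicate 1, 6 members and 1392 of all genes were called. In T+WSD versus WSD, which adds testosterone to the diet, 0 members passed by edgeR, with 1.67% of all genes, and 4 members and 3039 of all genes had an unadjusted p below 0.05. The smallest adjusted p was that of MANBA, which DESeq2 called (adjusted p = 0.0102), with 799 of 16920 genes called.

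MANBA (ENSMMUG00000003739), the beta-mannosidase that takes the last mannose from N-glycans, was the 1 member with a call for the interaction of testosterone and diet, at the threshold of an adjusted p below 0.1 used for this term. MANBA ranged from 11.5 to 25.1 CPM (median 22.1) in C, from 11.1 to 20.04 (16.2) in T, from 9.24 to 16.2 (11.8) in WSD and from 15.3 to 24.1 (19.9) in T+WSD. All 6 WSD animals and all 6 T animals lay below the C median, and 5 of 6 T+WSD animals lay above every WSD animal. The interaction, the testosterone effect on the Western-style diet minus that on chow, was 1.07 on the log2 scale (95% interval 0.52 to 1.61, adjusted p = 0.0916), and 0.809% of all genes passed this test. The log2 fold change was -0.35 in T versus C and -0.73 in WSD versus C (adjusted p = 0.596 and 0.131). It was 0.72 in T+WSD versus WSD (adjusted p = 0.0514). The interaction stayed below the threshold in 8 of the 24 fits that left out 1 animal, with adjusted p-values of 0.0301 to 0.163, and its size ranged from 0.98 to 1.18. LGMN and LIPA had interaction terms of 0.59 and 0.90 that did not pass (adjusted p = 0.460 and 0.449). For the other 6 genes higher in T+WSD, the terms ran from -0.16 to 0.32.

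Seen by animal, the summed level of the 34 genes was 3729 to 7511 CPM in C, 4713 to 7333 in T, 5817 to 6939 in WSD and 6362 to 9984 in T+WSD. The highest C and T animals thus overlapped with T+WSD, and WSD was the narrowest group. T+WSD had the highest group mean in 20 of the 34 genes and C the lowest in 13. The median over genes of the coefficient of variation was 21.6% among the C animals, 18.1% among T, 17.2% among WSD and 14.7% among T+WSD. It was largest for CTSS in C (64.3%), CTSB in T (61.3%) and LIPA in T+WSD (56.3%). Within C, replicate 1 had the lowest summed level (3729 CPM) and the lowest macrophage marker sum (302 CPM), and replicates 2 and 6 had the highest in both (7362 and 7511 CPM for the lysosomal genes, 1954 and 1876 for the macrophage markers). In T+WSD, replicate 7 had both the highest lysosomal sum (9984 CPM) and the highest macrophage sum (1631 CPM).

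The rest of the lysosomal pathway was followed in 7 further gene lists, together 128 tested genes, of which 19 (14.8%) were higher and 6 (4.69%) lower in T+WSD versus C, where 7.18% and 9.94% of all genes were. With so few genes a list, 1 call in a list of 14 or more is no more than that share. Of 32 other hydrolases, 5 rose and 1 fell. Among those that rose was PLA2G15, a lysosomal phospholipase (0.62, adjusted p = 0.0415). Of 27 other lysosomal membrane proteins, 6 rose and 1 fell. ABCA2, a lipid transporter, and SLC36A1, an amino acid transporter, had log2 fold changes of 0.88 and 0.87 (adjusted p = 0.0269 and 0.0412), and LAPTM4A one of -0.34 (adjusted p = 0.0217). Of 14 subunits of the proton pump (V-ATPase) that acidifies the lysosome, 1 rose, ATP6V0A1 (0.46, adjusted p = 0.0139).

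Of 10 genes that sort hydrolases to the lysosome, 3 rose and 0 fell. They included IGF2R, the large mannose 6-phosphate receptor (0.71, adjusted p = 0.00317), and LRP1, an endocytic receptor (0.56, adjusted p = 0.0368). Of 17 genes around the control of TFEB by mTORC1, 3 rose and 1 fell. MITF, a relative of TFEB, rose from a mean of 46.7 CPM in C to 87.4 in T+WSD (0.90, adjusted p = 0.00607), and RRAGD, a small GTPase that brings these factors to the lysosome, had a value of 1.12 (adjusted p = 0.0330). LAMTOR3, a subunit of the Ragulator scaffold, had one of -0.37 (adjusted p = 0.0199). Of 23 autophagy genes 1 rose, VPS39 (0.30, adjusted p = 0.0171). Of 5 cathepsin inhibitors 3 fell and 0 rose, among them CST6 (-3.03, adjusted p = 0.00922) and SERPINB6 (-2.40, adjusted p = 0.00400). Whether these act on the cathepsins of the set was not tested. The median log2 fold changes were 0.21 for other hydrolases, 0.23 for other membrane proteins, 0.16 for the V-ATPase, 0.27 for sorting, 0.12 for TFEB control, 0.03 for autophagy and -0.64 for the inhibitors. The identifiers of PLA2G15 and CST6 came, like that of LIPA, from the study's list of changed genes. Without them 4 of 31 other hydrolases rose and 2 of 4 inhibitors fell.

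In WSD and T versus C 0 of these 128 genes passed by edgeR, with 28 and 19 (21.9% and 14.8%) at an unadjusted p below 0.05, where 18.5% and 8.63% of all genes were. Against T, 4 rose in T+WSD, OSTM1 (0.56), MITF (0.84), ATP6V1A (0.68) and SUMF1 (0.32), and CST6 fell (-2.73), with adjusted p-values of 0.00631, 0.0186, 0.0481, 0.0486 and 0.0298. The 4 were 3.12% of these genes, about the share of all genes that were higher (3.30%). OSTM1, ATP6V1A and SUMF1 were chosen for mention after their values were seen.

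Markers of cell types moved with the groups as well. Of 21 macrophage markers 1 (against 7.18% of all genes) rose in T+WSD versus C, MSR1, a scavenger receptor (1.66, adjusted p = 0.0269), and 0 fell, with a median log2 fold change of 0.24. The 3 most abundant, CSF1R, MRC1 and CD163, had values of 0.26, 0.39 and 0.51 (adjusted p = 0.560, 0.318 and 0.199), and MARCO and FCGR1A had -1.55 and -0.85 (adjusted p = 0.391 and 0.394). The summed level of the list was 302 to 1954 CPM in C, 517 to 1949 in T, 704 to 1622 in WSD and 806 to 1631 in T+WSD, so that the groups overlapped. Of 11 markers of lipid-associated macrophages, the cells that gather around dying adipocytes, 5 rose and 1 fell, with a median of 1.27. CHIT1, a chitinase of lipid-laden macrophages, rose from a mean of 18.5 CPM to 377 (4.33, adjusted p = 0.0136). SPP1 (osteopontin) rose from 10.3 to 58.2 CPM (2.47, adjusted p = 0.0220) and GPNMB from 235 to 593 (1.34, adjusted p = 0.0155). MMP9 rose as well (2.08, adjusted p = 0.0335), and CD9 fell (-1.24, adjusted p = 0.00442). The sum of this list is mostly LPL and APOE, which adipocytes express too (0.87 and 0.74, adjusted p = 0.106 and 0.122). Without these the 9 other genes summed to 277 to 887 CPM in C, 370 to 681 in T, 378 to 987 in WSD and 756 to 2860 in T+WSD.

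Mesothelial markers, from the cell layer that covers the omentum, went the other way. Of 15, 12 fell and 0 rose, with a median of -2.36, where 9.94% of all genes were lower. ITLN1, TM4SF1, MSLN and KRT18 had log2 fold changes of -3.28, -1.75, -2.99 and -3.15 (adjusted p = 0.0109, 0.00376, 0.00650 and 0.00322). Their summed level was 3641 to 41683 CPM in C, 3668 to 18876 in T, 1024 to 6989.7 in WSD and 417 to 3613 in T+WSD. Among 12 endothelial markers 8 rose (VWF 0.97, PECAM1 0.88, adjusted p = 0.00740 and 0.00294), and of 10 markers of smooth muscle and pericytes 4 rose (MCAM 1.19, NOTCH3 1.15, adjusted p = 0.0211 and 0.0220). Of 12 adipocyte markers LEP (leptin) rose (2.20, adjusted p = 0.0442), with a list median of 0.52. Of 12 fibroblast markers DPT rose (0.98, adjusted p = 0.0231), but only 5 had positive values and the list median was -0.07. Of all genes 7.18% were higher, so 1 of 12 (8.33%) is near that share. Of 6 neutrophil markers S100A9 and S100A8 fell (-3.08 and -2.97, adjusted p = 0.0206 and 0.0394). In that list 4 had positive values, and its median was 0.16. None of 9 T and NK cell markers or 5 B and plasma cell markers passed. No marker in these lists was at 0 in every animal of a group. TM4SF1 and KRT8 of the mesothelial and CLDN5 of the endothelial list were found, like LIPA, through the study's list of changed genes, and without them 10 of 13 mesothelial markers fell and 7 of 11 endothelial markers rose.

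In the 16 libraries 0 markers of any list passed by edgeR. At an unadjusted p below 0.05 were 8 of 11 lipid-associated macrophage, 11 of 15 mesothelial and 7 of 12 endothelial markers, with median log2 fold changes of 0.92, -1.78 and 0.44. Without C replicate 1 of the 24 animals, 3 lipid-associated macrophage markers were higher, 11 mesothelial markers lower and 5 endothelial markers higher. Over all genes 1397 of 15330 were called there. In that fit 0 macrophage and 0 adipocyte markers passed by edgeR, with 1 and 4 at an unadjusted p below 0.05, and LEP had an adjusted p of 0.0544.

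**Figure D4:**
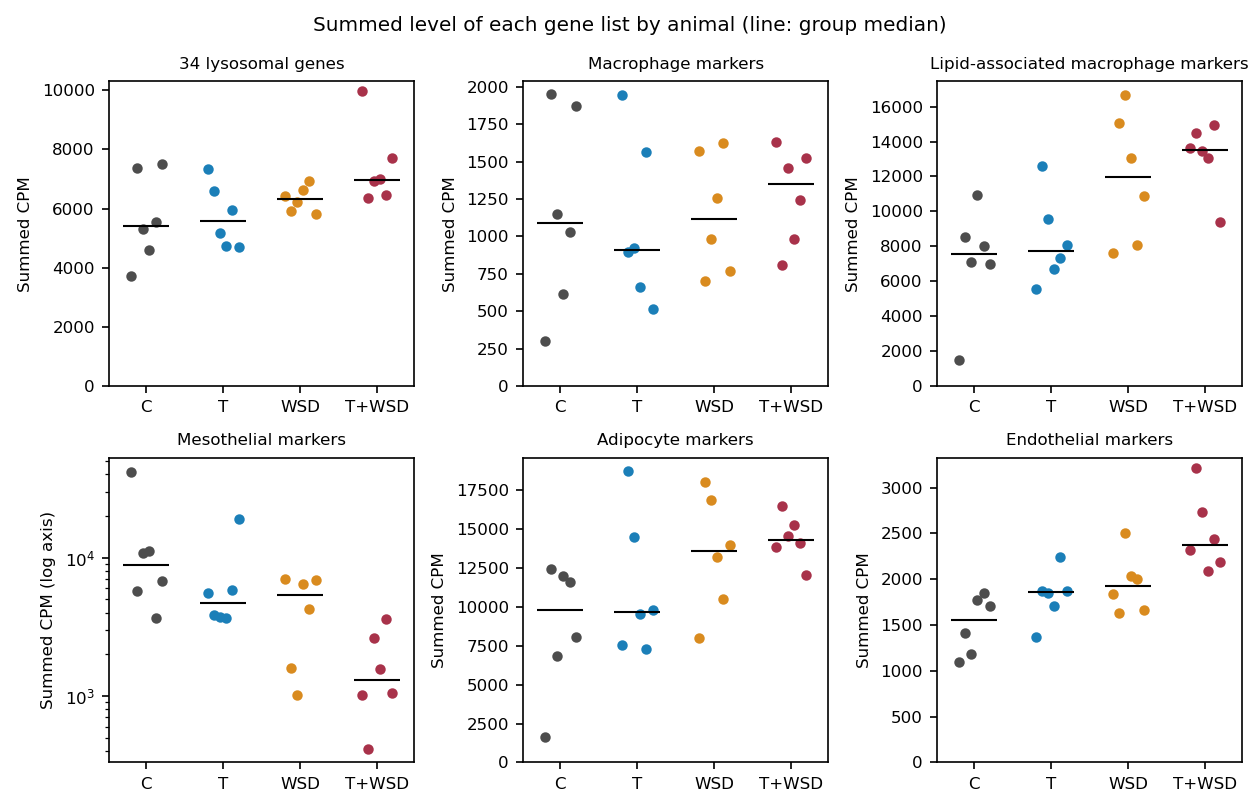
Summed CPM of the 34 lysosomal genes and of 5 marker lists in each animal (points, by group), with the group median as a line. The mesothelial panel has a log axis. Macrophage sums overlap between all groups, T+WSD mesothelial sums (417 to 3613 CPM) lie below those of every C animal, and T+WSD endothelial sums (2090 to 3216) above them.

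With the mean log2 CPM of the macrophage list as a covariate, 7 of the 8 lysosomal genes and 2461 of all 15207 genes passed in T+WSD versus C by edgeR. MCOLN1 did not (adjusted p = 0.0525). This macrophage mean overlapped between C and T+WSD (2.89 to 5.97 and 4.34 to 5.61 on the log2 CPM scale). With this overlap the covariate may take up little of the group difference, and the part of macrophages in that difference was not tested. With the mean of the lipid-associated macrophage list instead, an alternative added after the data were seen, 0 of 34 members and 0 of all 15207 genes passed by edgeR, with 2 members and 1641 genes at an unadjusted p below 0.05. The log2 fold changes then were 0.44 for CTSD, 0.34 for LAMP1, 0.26 for CTSZ, 0.08 for LGMN, -0.10 for CTSC and -0.27 for LIPA. With the mesothelial mean as a covariate again 0 members and 0 of all genes passed by edgeR, with 2 members and 558 genes at an unadjusted p below 0.05. In that fit the 8 log2 fold changes ran from 0.068 for MCOLN1 to 0.64 for LIPA. Both lists differ between the C and T+WSD animals themselves, so in these fits the marker level and the treatment cannot be told apart. The part of the endothelial, smooth muscle and adipocyte markers in the lysosomal result was not tested.

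In the 16 libraries with 4 animals a group, 0 members passed in T+WSD versus C by edgeR, 8 (23.5%) had an unadjusted p below 0.05 against 21.1% of all genes, and 84 of all genes passed. These 8 were 6 of the genes called in the whole set (all but CTSC and MCOLN1) with CTSL and TPP1. The 8 genes called in the whole set had log2 fold changes of 0.27 (MCOLN1) to 0.80 (LIPA) there. In the other 8 libraries, with 2 animals a group, 0 of all genes passed by edgeR, 6 members and 1829 genes (13.3%) had an unadjusted p below 0.05, and the 8 genes ran from 0.61 (SMPD1) to 1.55 (LIPA). With the library split as a covariate 6 of the 8 passed, and CTSC and LIPA did not (adjusted p = 0.0504 and 0.0551). Over all genes 2543 passed in that fit. When single animals were left out, CTSD, CTSZ and LAMP1 passed in all 24 fits, and LGMN in all but that without T+WSD replicate 7 (adjusted p = 0.0504). SMPD1 passed in 20, MCOLN1 in 16, CTSC in 11 and LIPA in 9, with highest adjusted p-values of 0.0655, 0.0997, 0.1101 and 0.155. The number of members called was 3 without T+WSD replicate 7, 4 without C replicate 1 or C replicate 3, 5 without C replicate 4 or T+WSD replicate 10, and 6 to 9 in the other 19 fits. The calls over all genes without T+WSD replicate 7, C replicates 1, 3 and 4 and T+WSD replicate 10 were 2003, 1397, 1718, 2291 and 1892. With all animals they were 2603. Over the 24 fits that left out 1 animal, the log2 fold change of LIPA was lowest at 0.72 and that of LGMN at 0.67.

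**Figure D5:**
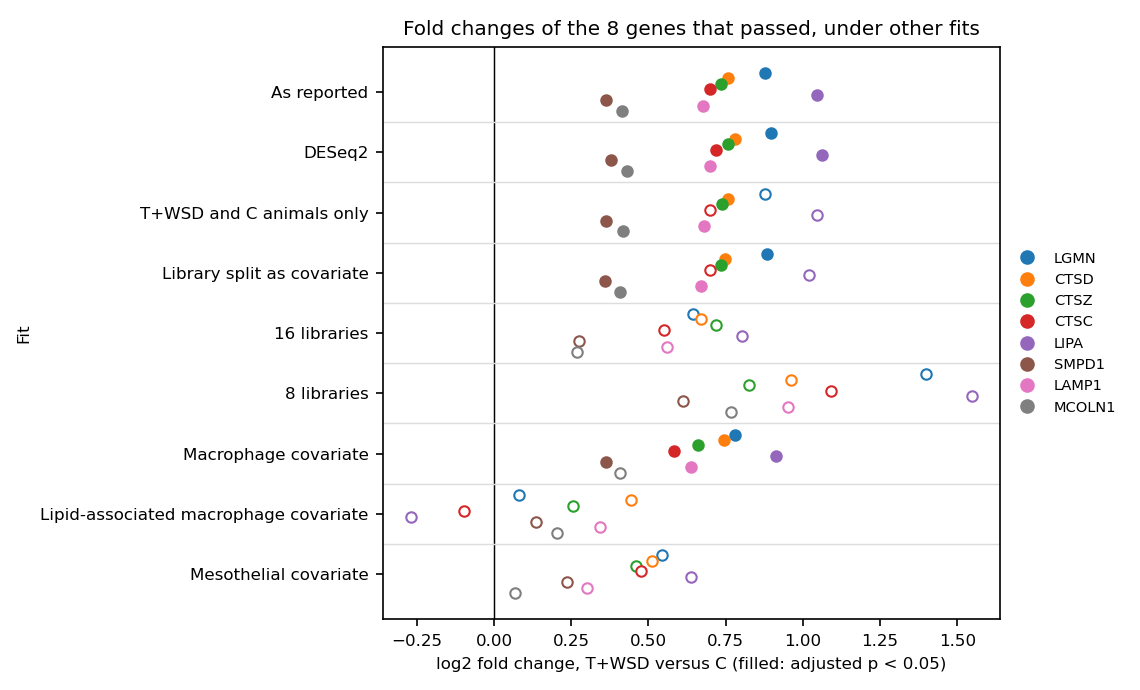
Log2 fold change in T+WSD versus C of the 8 genes that passed (colours), in the reported fit and under 8 others. Filled points passed at an adjusted p below 0.05. None is filled in the 16 or the 8 libraries or with the lipid-associated macrophage or mesothelial covariate, and the points below 0 are CTSC (-0.10) and LIPA (-0.27) with the lipid-associated macrophage covariate.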

How the data were processed

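RNA from 24 omental WAT biopsies was depleted of ribosomal RNA (TruSeq Ribo-Zero) and sequenced as single reads. The authors deposited raw gene counts, whole numbers per Ensembl gene and animal. Per the submitters' processing notes and the methods, FastQC 0.11.5, Trimmomatic 0.36, STAR 2.5.2b (genome rheMac8) and DESeq2 1.18.1 were used. The counter and its strand setting are not given in the sources used here, so reads of overlapping or antisense genes could not be separated.

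Genes were named by Ensembl identifier. The members and lists were chosen with earlier results of these data known. Counts were analysed with edgeR 4.0.16 (limma 3.58.1, R 4.3.3), TMM scaling and filterByExpr (minimum count 10, minimum total 15), which kept 15207 of 32386 genes (7255 were at 0 in all animals). Total counts had a median of 20630512.5 per library. One quasi-likelihood fit (glmQLFit, robust) to all 4 groups shared its dispersion, and each comparison was a two-sided contrast in it. No 2 libraries of a group had identical counts (60 pairs). Calls used an adjusted p below 0.05, and below 0.1 for the interaction. The script was tested on simulated data with 200 changed genes. Members called in any comparison, and the largest change not called in each role group, are given by group. From each other list the 2 largest increases and decreases called in T+WSD versus C are named, and from the macrophage, lipid-associated macrophage and mesothelial lists also the 3 most abundant genes and the 3 with the largest changes. Alternatives were DESeq2 1.42.0, other scalings, filters and fits, marker and library covariates, library subsets and leaving out each animal. Each replicate is a separate animal, so the tests weigh group differences against the spread between animals, pooled over the 4 groups. No coordinates or sequences are given, since the reference used here has another build. Some genes of the further lists that the naming rule covers are not reported here.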

Additional observations from a re-analysis of the deposited data

Results flagged for a closer look

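Dixon's test was applied to the 34 genes in each of the 4 groups, 136 groups of 6 animals, comparing the gap to the nearest animal over the range of the group with the 95% critical value for 6 samples. Chance flags about 1 in 20 groups, and 9 exceeded the value. In T+WSD, replicate 7 stood above the others for CTSA (gap over range 0.6743, at 274 CPM against 202 in the next animal) and for GUSB (0.6485, at 47.1 against 28.7 CPM). In T, replicate 13 was high for CTSL (0.7422, 206 against 143 CPM), replicate 14 was high for SMPD1 (0.6809, 66.9 against 53.8 CPM) and replicate 18 was low for TPP1 (0.6466, 63.3 against 79.7 CPM). In WSD, replicate 20 was low for GLB1 (0.6755, 61.9 against 72.6 CPM), replicate 24 was high for GAA (0.7341, 123 against 88.8 CPM) and replicate 19 was high for SGSH (0.6465, 12.7 against 9.12 CPM). In C, replicate 6 was high for PPT1 (0.6567, 174 against 135 CPM). T+WSD replicate 7, T replicates 13 and 14 and WSD replicates 19 and 20 are among the 8 libraries in which 1 gene took over 5% of the counts. The part of that feature in these values was not tested.

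The effect of testosterone on MANBA differed between the diets by 1.066 on the log2 scale (edgeR interaction, adjusted p = 0.0916), with a log2 fold change of -0.35 in T versus C (adjusted p = 0.596) and 0.72 in T+WSD versus WSD (adjusted p = 0.0514).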

How the results depend on the processing

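No paired analysis was possible because each replicate number was used for 1 animal and the groups share none. In T+WSD versus C, 8 members were called. The count was 5 with no filter on low counts, which adds genes to the adjustment (2014 calls among all genes in place of 2603, and 3210 with DESeq2), and 5 when only the groups compared were fitted (2379 of 14657 genes). It was 0 in the 16 libraries, 0 with the mesothelial covariate, 0 in the 8 libraries and 0 with the lipid-associated macrophage covariate, the last pair of settings being chosen after seeing the data, like the count of 7 without LIPA. The library subsets have fewer samples, and for the covariates the cause was not tested. CTSC and LIPA reversed with the lipid-associated macrophage covariate, to -0.10 and -0.27. The other 6 genes called in T+WSD versus C, the 4 called versus T and the MANBA interaction kept their sign under every setting run. Log2 fold changes of genes that were not called, and of the further lists, were not followed singly. Leaving out single animals gave 3 to 9 calls, with 1397 to 2995 calls over all genes.

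In WSD versus C DESeq2 called 3 members in place of 0, with 389 of 15027 genes, and leaving out animals gave 0. In T versus C the count was 0 under every alternative run. Between T+WSD and WSD 1 member, MANBA, was called in place of 0 with DESeq2, RLE or upper-quartile scaling, at least 10 counts in every animal, legacy=FALSE, only the groups compared, or ENSMMUG00000038258 left out, and also when C animals 1, 4 or 5, T animal 14 or WSD animal 19 were omitted (0 to 1 over single animals). In T+WSD versus T the 4 calls became 1 with no filter and 1 in the 16 libraries, 0 with the mesothelial covariate, 0 in the 8 libraries and 0 with the lipid-associated macrophage covariate, and 2 had a fold change over 1.5. Over all genes 602, 443, 0, 0 and 23 were called in these other fits, in that order, against 988. DESeq2 and the fit of only the groups compared called 6 each, with 1787 of 18335 and 2002 of 14565 genes called. Single animals gave 0 to 6 calls, with 1 call when T animals 15 or 17 or T+WSD animals 8 or 9 were omitted, and 2 when C animal 4, T animal 13, WSD animals 22, 23 or 24 or T+WSD animal 12 were. Over all genes the fits without 1 animal gave 357 to 1392 calls in this comparison. The interaction of MANBA gave 0 calls with no filter, in the 16 libraries, in the 8 libraries, with the lipid-associated macrophage covariate, or at an adjusted p under 0.05. Single animals gave 0 to 1, and the call was kept when C animals 2, 4 or 5, T animals 13 or 17, WSD animals 19 or 21 or T+WSD animal 8 were omitted. The 25 calls in the 7 further lysosomal lists became 0 in the 16 libraries, in the 8 libraries and with the mesothelial or the lipid-associated macrophage covariate, and 16 to 30 without single animals, with 16 without C replicate 3 or T+WSD replicate 7. With 6 animals a group, log2 differences of members below about 0.3 mostly had intervals that included 0.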
